A study of Mus musculus with 15 samples.

Results

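The comparison described here is of ibrutinib with vehicle in leukemia cells of Eμ-TCL1;p53R172H/+ mice, and it holds 9 of the 15 libraries of the series. Its members were chosen by genotype and treatment in the sample titles: 4 libraries of cells in ibrutinib (numbers 1, 3, 4 and 5) and 5 libraries of cells in DMSO (numbers 1 to 5). Eμ-TCL1 mice express the TCL1 oncogene from a B-cell enhancer and develop a leukemia that models human chronic lymphocytic leukemia, and these mice carried in addition 1 mutant Trp53 allele (p53R172H) beside a wild-type allele, on a C57Bl/6 background. Both groups therefore shared the transgene and the mutant allele. Cells were freed from leukemic spleens by mechanical disruption, with no sorting step described, and were cultured for 24 h with 5 μM ibrutinib or with DMSO before total RNA was sequenced. The age of the donor mice was not stated for these cultures. The labels do not say that each library came from a separate mouse, so p-values measure the spread between these libraries only. The other 6 libraries, of Eμ-TCL1 mice with wild-type Trp53, enter only 1 model at the end.

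Ibrutinib is a covalent inhibitor of Bruton's tyrosine kinase (BTK), which relays signals from the B-cell receptor through phospholipase C gamma to calcium, NF-κB and ERK. Within hours of receptor engagement B-cells transcribe immediate-early genes such as the EGR and NR4A families, then MYC and the genes of ribosome production and cell division. In chronic lymphocytic leukemia the receptor signals without a known external trigger, which is the basis of treatment with ibrutinib. The inhibitor also binds several other kinases.

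Vehicle and ibrutinib values were deposited in separate tables, each normalised on its own, with 15869 genes in both. Values below are the authors' normalised CPM (read counts scaled to library size), rescaled so that the median gene was level between libraries, after 18 mitochondrial genes were dropped. This left 15851 genes, and differences are given on the scale of the log2 of the rescaled value plus 1. Treatment and table coincide, so a difference between tables and one between treatments cannot be told apart beyond this rescaling. Sequencing depth is unknown.

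The libraries did not hold the same cells. The 16 B-cell marker genes summed to 5170 to 5742 in DMSO libraries 3, 4 and 5, but to only 358 and 340 in DMSO libraries 1 and 2 and to 103.4 in ibrutinib library 1. These last 3 libraries go against their label as B-cells, since the 20 markers of T and NK cells summed there to 4463, 5410 and 4018, against 298.7 to 346 in DMSO libraries 3, 4 and 5. Ibrutinib libraries 3, 4 and 5 lay between, with B-cell sums of 1007, 2696 and 2523 and T-cell sums of 2788, 1454 and 1788. No B-cell marker was at 0 in any library. Over all 9 libraries the B-cell sums of the treatments did not differ beyond their spread (2-sided exact permutation test, p = 0.222). The erythroid and megakaryocyte sum averaged 247 in ibrutinib and 45 in DMSO (exact permutation p = 0.0317), and the myeloid sum 701 and 119 (exact permutation p = 0.0476). In bulk RNA, fewer cells of a type and less RNA of that type per cell cannot be told apart. Mitochondrial transcripts took 6.3% of the column sum in ibrutinib library 1 and 21.4%, 42.1% and 43.7% in libraries 3, 4 and 5, against 4.4% to 9.9% in DMSO (exact permutation p = 0.0397), as the plot of markers by library shows.

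**Figure D1:**
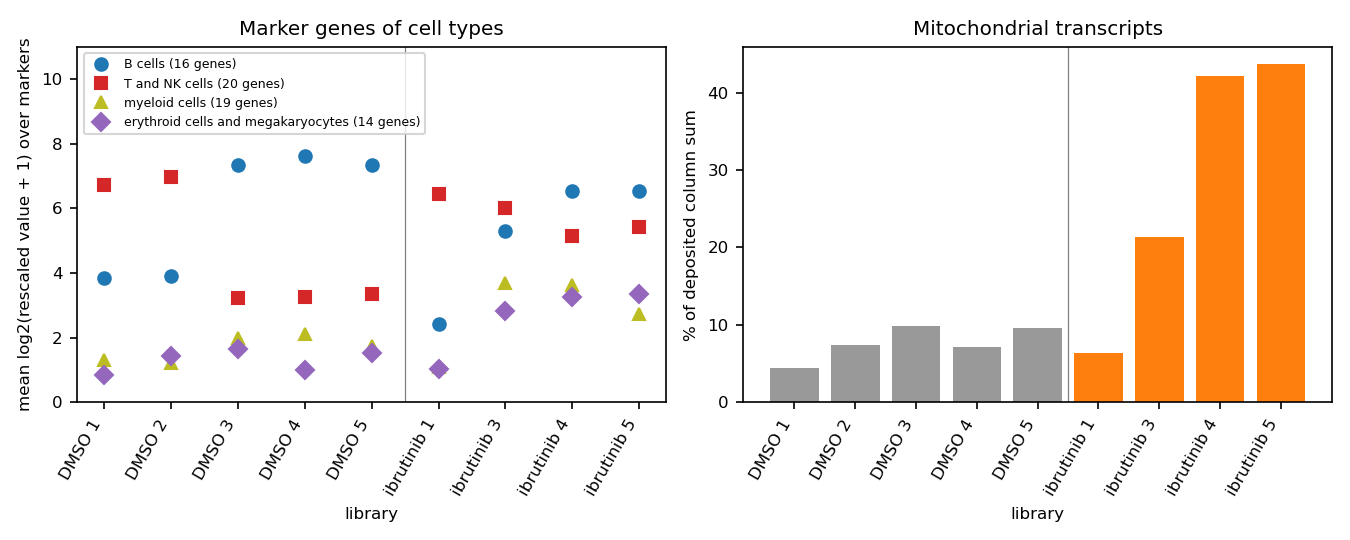
Left, mean log2(rescaled value + 1) over the marker genes of 4 cell types (y axis) in each of the 9 libraries (x axis). Right, mitochondrial transcripts as a percentage of each deposited column sum. DMSO libraries 1 and 2 and ibrutinib library 1 have high T-cell and low B-cell markers, and ibrutinib libraries 3, 4 and 5 have more mitochondrial transcripts (21.4% to 43.7%) than every DMSO library (at most 9.9%).

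The leading immunoglobulin variable genes were taken as a sign of the leukemia in each library, but clonal identity was not tested. Ighv11-2 led in ibrutinib library 1 and DMSO libraries 1 and 2, with the same kappa gene in each, Ighv12-3 with Igkv4-91 in both libraries of number 4, and Ighv6-3 with Igkv12-46 in ibrutinib library 5 and DMSO libraries 3 and 5. Ibrutinib library 3 was led by Ighv1-52 with Igkv19-93, which led in no vehicle library, so number 3 pairs different leukemias. Numbers 1, 4 and 5 were therefore also compared as pairs. DMSO libraries 1 and 2, and 3 and 5, shared a leading pair of variable genes. Such libraries may come from 1 leukemia and 1 mouse, but this was not tested. Ighv11-2 was only at 14.3 in ibrutinib library 1 and at 23.4 and 24.3 in DMSO libraries 1 and 2. Results are given over 9 libraries and over the B-cell-rich libraries (numbers 3, 4 and 5 of both treatments, 3 against 3). Their sums of B-cell markers were at least 1007, but the name is relative. In ibrutinib library 3 the T and NK sum was higher (2788), against 298.7 to 346 in DMSO libraries 3, 4 and 5.

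Regulatory sequence is shown for genes on which the results turn, from RefSeq promoters (GRCm38.p6) searched on both strands over the 250 bases before each start site. Capitals mark the motif: a CArG box, which serum response factor binds downstream of ERK, in Egr2, a κB site, which NF-κB dimers bind, in Nfkbie and Nfkbid, and an antioxidant response element core (TGACNNNGC) in Gclm. None of these windows overlaps an exon of GENCODE M21.
Egr2 (chr10:67537742-67537861, plus strand): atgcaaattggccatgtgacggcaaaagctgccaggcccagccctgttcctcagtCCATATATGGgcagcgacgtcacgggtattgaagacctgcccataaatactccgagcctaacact
Nfkbie (chr17:45555539-45555658, plus strand): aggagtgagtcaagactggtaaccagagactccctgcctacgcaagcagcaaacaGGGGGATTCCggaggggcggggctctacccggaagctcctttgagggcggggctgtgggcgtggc
Nfkbid (chr7:30422170-30422289, plus strand): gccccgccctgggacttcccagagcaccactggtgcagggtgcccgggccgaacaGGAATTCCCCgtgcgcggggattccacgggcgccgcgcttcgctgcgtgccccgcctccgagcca
Gclm (chr3:122245367-122245486, plus strand): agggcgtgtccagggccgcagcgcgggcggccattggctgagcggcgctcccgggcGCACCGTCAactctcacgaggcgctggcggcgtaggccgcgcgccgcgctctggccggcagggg
The CArG box was found before a start of 1.62% of 27025 genes and of 2 of the 27 receptor response genes with a promoter (Egr2 and Dusp5). The κB pattern was found in 1.34% of genes and in 8 of 19 genes of the NF-κB list, and the TGACNNNGC core in 11.5% of genes. In Egr2 the CArG box began 72 bases before a start site. These are matches of letters and not measured binding.

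Over the 9 libraries 1 gene passed the limma test with Benjamini-Hochberg adjustment at 0.05 over 15851 genes (0.00631%), and 3008 had an unadjusted p under 0.05. That gene was Tmem38a (chr8:72572055-72587282), which encodes the TRIC-A cation channel of the endoplasmic reticulum. It stood at 7.62, 12.2, 8.63 and 7.42 in ibrutinib libraries 1, 3, 4 and 5, and at 1.7, 1.43, 1.03, 1.13 and 1.15 in DMSO libraries 1 to 5. All ibrutinib libraries were above all DMSO libraries, and the log2 difference was 2.11 ± 0.20 (SE, limma adjusted p = 0.0354). Under 23 alternative settings its log2 difference ran from 1.14 to 2.70 and its limma adjusted p from 0.00375 to 0.628. In 1295 genes (8.17%) the treatments did not overlap, 760 higher (4.79%) and 535 lower (3.38%) in ibrutinib. Without ibrutinib library 1 the number of passing genes was 709, without ibrutinib library 3 it was 2, and without any 1 of the other 7 libraries it was 0. A fit chosen after seeing the data left out ibrutinib library 3 and took libraries with the same leading variable genes as a block. In it 140 genes passed in limma (0.883%), 40 higher (0.252%) and 100 lower (0.631%). Tmem38a was among the higher genes (limma adjusted p = 0.00917). Paired by number over 1, 4 and 5, no gene passed in limma (lowest adjusted p = 0.236), with 3132 at an unadjusted p under 0.05.

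In the B-cell-rich libraries 4206 genes passed the same limma test (26.5%), of which 2750 rose (17.3%) and 1456 fell (9.19%). Markers of other cells moved with the treatment there: 16 of 20 T and NK markers rose (median log2 difference 2.55), 10 of 14 erythroid and megakaryocyte markers (1.97) and 4 of 19 myeloid markers (1.26), while 4 of 16 B-cell markers fell (median −1.01, from −3.67 to −0.29). Counts below that rest on these libraries are to be read beside those shifts, whose part in them was not tested except in 1 fit: with the B-cell marker level as a covariate over all 9 libraries, 686 genes passed (4.33%), of which 505 rose (3.19%) and 181 fell (1.14%). The same covariate within the B-cell-rich libraries left 0 genes past the limma threshold (2335 at an unadjusted p under 0.05), as did pairs 4 and 5 alone (5430). The count fell to 2467 without ibrutinib library 3, to 2238 without ibrutinib library 4, to 1749 without DMSO library 3 and to 2379 without DMSO library 5. With equal column sums the split was 1759 higher and 2295 lower, and with values as deposited 1539 and 4407, so the share of higher genes depends on the scaling.

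The immediate-early genes Egr2, Egr3 and Nr4a1 fell in the B-cell-rich libraries and with the B-cell marker covariate. Egr2, a zinc-finger transcription factor induced by receptor signals, stood at 0.119, 1.17, 2.7 and 1.19 in ibrutinib libraries 1, 3, 4 and 5, and at 5.99, 8.51, 207, 93.2 and 238 in DMSO libraries 1 to 5. No libraries overlapped, although vehicle libraries 1 and 2, with few B-cell transcripts, were far below the other vehicle libraries. The log2 difference was −4.57 ± 1.14 over 9 libraries (SE, limma adjusted p = 0.131) and −6.01 ± 0.41 in the B-cell-rich libraries (limma adjusted p = 0.00356). With the B-cell marker level as a covariate it was −3.89 (limma adjusted p = 0.0336), and every number pair was lower in ibrutinib, with a difference of −2.64 in pair 1, −4.67 in pair 4 and −6.77 in pair 5. Its relative Egr3 was at 0, 0.13, 1.35 and 0.927 in ibrutinib libraries and at 2.15, 7.07, 39.3, 82.8 and 66.2 in vehicle libraries, again without overlap (log2 difference −3.90 ± 0.97 over 9 libraries, limma adjusted p = 0.129). The orphan nuclear receptor gene Nr4a1, a reporter of receptor signal strength, was at 0, 0.911, 4.18 and 1.32 in ibrutinib and at 6.44, 8.77, 53.3, 211 and 71.5 in vehicle. Both fell in the B-cell-rich libraries, with log2 differences of −5.15 for Egr3 and −5.05 for Nr4a1 (limma adjusted p = 0.00356 and 0.00512), and both passed with the B-cell marker covariate (0.0347 and 0.0336).

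Egr1 was at 0.357, 1.69, 19.2 and 3.44 in ibrutinib and at 4.56, 17.7, 52.3, 179 and 116 in vehicle. Here the groups overlapped, since ibrutinib library 4 stood above vehicle libraries 1 and 2. In the B-cell-rich libraries Egr1 fell with a log2 difference of −4.06 (limma adjusted p = 0.018), and with the B-cell marker covariate the difference was −2.59 and did not pass (0.0514). Of 39 measured genes on the receptor response list 10 fell and 2 rose in the B-cell-rich libraries (9.19% and 17.3% over all genes). With the covariate 6 fell and 1 rose (1.14% and 3.19% over all genes). Over 9 libraries 5 were lower and 2 higher without overlap (3.38% and 4.79% over all genes). The median of the list was −0.20 over 9 libraries beside 0.10 over all genes, so most of its members changed far less than the EGR genes.

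Myc, the transcription factor that drives ribosome production and growth, was at 48.2, 25.4, 25.6 and 67.3 in ibrutinib and at 82.5, 145, 142, 239 and 184 in vehicle. Every ibrutinib library was below every vehicle library, including those with few B-cell transcripts. The log2 difference was −1.94 ± 0.38 (limma adjusted p = 0.11), −2.35 ± 0.42 in the B-cell-rich libraries (limma adjusted p = 0.0126) and −1.86 with the B-cell marker covariate (limma adjusted p = 0.042).

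**Figure D2:**
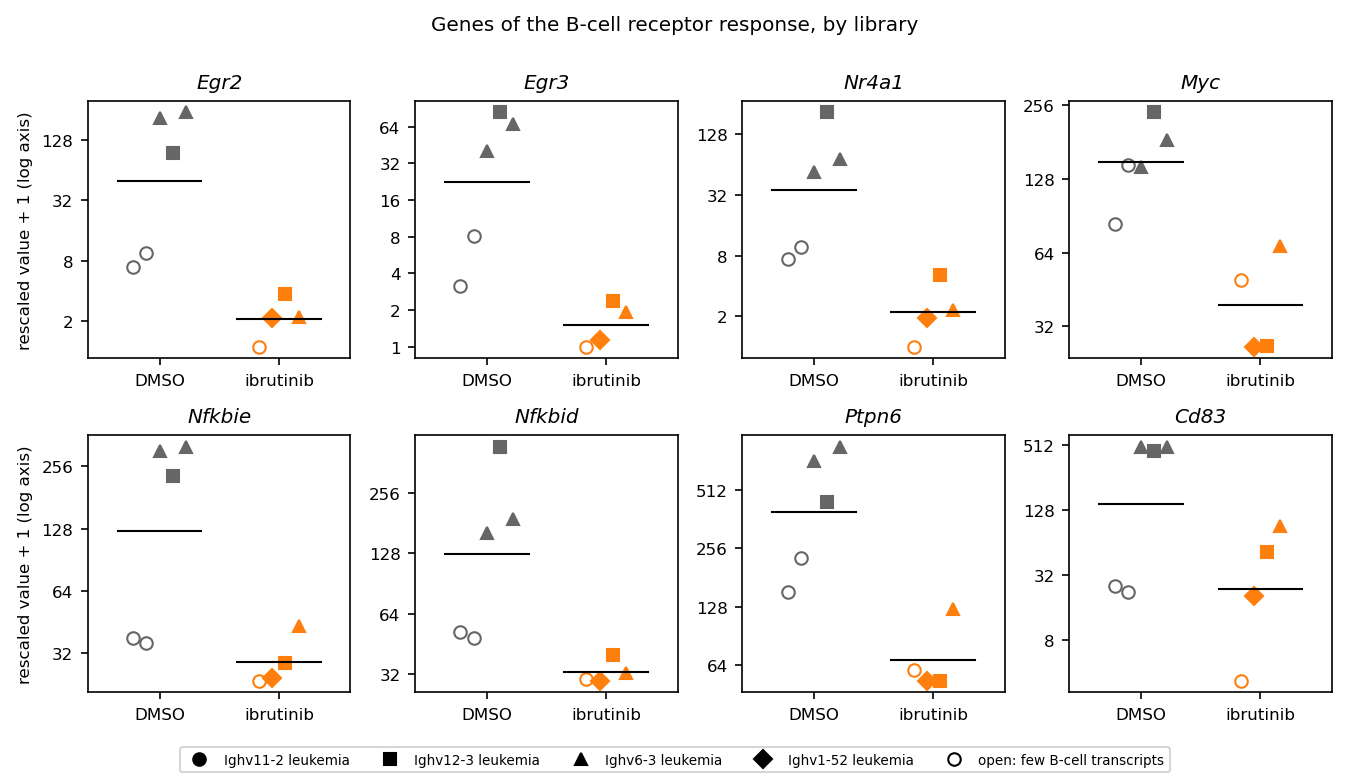
Rescaled value plus 1 (y axis, log scale) of 8 genes in each DMSO (grey) and ibrutinib (orange) library. Shapes mark the leading heavy-chain variable gene, open symbols the 3 libraries with few B-cell transcripts, and lines the group mean on the log scale. Egr2, Egr3, Nr4a1, Myc, Nfkbid and Ptpn6 do not overlap between treatments, while Nfkbie and Cd83 overlap through the open vehicle libraries.

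Of 24 measured NF-κB genes 9 fell and 6 rose in the B-cell-rich libraries, beside 9.19% and 17.3% over all genes. The inhibitor genes Nfkbid and Nfkbie were among those that fell. Nfkbid, which encodes the nuclear inhibitor IκBNS, was at 29.4, 28.8, 39 and 31.5 in ibrutinib and at 51.3, 47.4, 160, 435 and 190 in vehicle, with no overlap. Nfkbie, which encodes IκBε, was at 22.5, 23.3, 27.5 and 42 in ibrutinib and at 36.8, 34.6, 304, 228 and 318 in vehicle. Only ibrutinib library 5 reached the level of vehicle libraries 1 and 2. In the B-cell-rich libraries Nfkbie and Nfkbid fell with log2 differences of −3.18 ± 0.25 and −2.81 ± 0.39 (SE, limma adjusted p = 0.00356 and 0.00666). Nfkb1, the p105 and p50 subunit gene, and Tnf, a cytokine gene under NF-κB control, fell there with log2 differences of −1.22 and −1.71 (limma adjusted p = 0.00492 and 0.0123). Map3k14, which encodes the kinase of the alternative pathway (NIK), went the other way, from 26.1 to 46.9 in vehicle to 47 to 58.9 in ibrutinib (log2 difference 0.58 ± 0.18, limma adjusted p = 0.164, 0.0172 in the B-cell-rich libraries). With the B-cell marker covariate 0 of the 24 passed in limma (7 lower and 2 higher at an unadjusted p under 0.05), and the list's median moved from −0.26 to 0.03.

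The receptor's own machinery was lower in parts. Ptpn6, which encodes the phosphatase SHP-1, stood at 59.1, 52.2, 52.3 and 123 in ibrutinib and at 151, 228, 721, 439 and 853 in vehicle. No library overlapped, and ibrutinib library 5 was the nearest to the vehicle range. The log2 difference was −2.54 ± 0.54 (limma adjusted p = 0.114), −3.20 ± 0.42 in the B-cell-rich libraries (0.00594) and −2.27 with the B-cell marker covariate (0.0362). Pik3ap1, the adaptor BCAP that links the receptor to PI3-kinase, was at 27.9 to 48.8 in ibrutinib and at 75.7 to 221 in vehicle, with no overlap (−1.89 ± 0.37, limma adjusted p = 0.11, and −2.52 with 0.00356 in the B-cell-rich libraries). Vav1, a guanine nucleotide exchange factor, and the inhibitory co-receptor gene Cd72 fell in those libraries with log2 differences of −0.88 and −3.59 (limma adjusted p = 0.0155 and 0.041), and did not pass with the covariate (0.0563 and 0.107). Cd72 varied strongly by leukemia, at 321 and 310 in vehicle libraries 3 and 5 and at 51.8 in vehicle library 4. Of 45 measured genes on the signaling list 11 fell and 2 rose in the B-cell-rich libraries, beside 9.19% and 17.3% over all genes. With the B-cell marker covariate 2 fell and 2 rose (1.14% and 3.19% over all genes), and the median was 0.00.

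Btk, the drug's target, was at 1.67, 29, 59.4 and 41.5 in ibrutinib and at 3.22, 3.76, 66.7, 63.6 and 73.8 in vehicle. Btk is itself a B-cell marker, and its lowest values were in the 3 libraries with few B-cell transcripts. The log2 difference was −0.12 ± 1.26 over 9 libraries and −0.70 ± 0.26 in the B-cell-rich libraries (limma adjusted p = 0.97 and 0.0965). With the B-cell marker covariate it turned to 0.75 (0.0603). Btk is 1 of the markers averaged into that covariate, so this fit cannot show how Btk itself changed. Among 12 measured genes of kinases that ibrutinib binds, 3 rose and 1 fell in the B-cell-rich libraries, beside 17.3% and 9.19% over all genes. With the covariate 0 passed in limma (2 higher and 1 lower at an unadjusted p under 0.05). Bmx was at 3.25 in ibrutinib library 3 and at most 0.405 in every other library, and Csk and Jak3 did not pass in either fit.

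Several further genes, among them Cd83, Cd180, Ly86, Tnfrsf13c and Scd1, were chosen after their values were seen, so they form no list with a count. Cd83, an activation marker, was at 2.38, 19.7, 51.9 and 90.5 in ibrutinib and at 24.7, 21.5, 498, 456 and 491 in vehicle. Vehicle libraries 3, 4 and 5 stood above all ibrutinib libraries, and the groups overlapped only through vehicle libraries 1 and 2. B-cell content was not matched, since marker sums were 1007 to 2696 in ibrutinib libraries 3, 4 and 5. They were 5170 to 5742 in vehicle libraries 3, 4 and 5. The log2 difference was −3.38 in the B-cell-rich libraries and −1.66 with the B-cell marker covariate (limma adjusted p = 0.0087 and 0.0279). In pairs 1, 4 and 5 the difference was −2.93, −3.11 and −2.43. With the leading variable genes as a block the limma adjusted p was 0.00595, the lowest of that fit and shared with other genes. Cd180 and Ly86, which encode the receptor complex RP105 and MD-1, fell with log2 differences of −2.74 and −3.67 in the B-cell-rich libraries (limma adjusted p = 0.00545 and 0.0149) and −0.93 and −1.81 with the covariate (0.0434 and 0.0336). Tnfrsf13c, the receptor of the survival factor BAFF, and Scd1, a fatty acid desaturase gene, fell with log2 differences of −2.40 and −3.17 (limma adjusted p = 0.0104 and 0.0176). With the covariate their differences were −0.94 and −1.06 (limma adjusted p = 0.0672 and 0.0526). Cybb, an NADPH oxidase subunit gene, and Fam129c, a B-cell gene, fell with log2 differences of −2.11 and −2.34 (limma adjusted p = 0.00554 and 0.0229), but did not pass with the covariate (0.0944 and 0.0654). For scale, the B-cell marker gene Ms4a1 had a difference of −2.13 in the same libraries (limma adjusted p = 0.0396).

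Of 17 measured MHC class II genes 10 fell and 1 rose in the B-cell-rich libraries, beside 9.19% and 17.3% over all genes. H2-Aa was at 27.7, 204, 377 and 404 in ibrutinib and at 94.7, 88, 1316, 1234 and 1494 in vehicle. Vehicle libraries 3, 4 and 5 stood above all ibrutinib libraries, and vehicle libraries 1 and 2 above ibrutinib library 1. H2-Aa, H2-Ab1 and H2-Eb1 fell with log2 differences of −2.09, −1.91 and −1.79 in the B-cell-rich libraries (limma adjusted p = 0.00853, 0.0169 and 0.0103). Ctss, a protease of antigen processing, Ifi30, a lysosomal thiol reductase, and Rfx5, a factor of the class II promoter complex, fell with log2 differences of −1.07, −1.15 and −1.09 (limma adjusted p = 0.00815, 0.0222 and 0.00988). Rfxap, another subunit of that complex, rose by 0.83 (0.0399). With the B-cell marker covariate in limma 0 of the 17 fell (3 lower at an unadjusted p under 0.05) and 1 rose, beside 1.14% and 3.19% over all genes. The difference of H2-Aa was −0.59 in that fit (limma adjusted p = 0.0855).

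Genes of ribosome production fell in most cases. Of 30 measured nucleolar and MYC genes 24 fell and 0 rose in the B-cell-rich libraries in limma, beside 9.19% and 17.3% over all genes. There 26 were lower and 0 higher at an unadjusted p under 0.05. Over 9 libraries 17 were lower without overlap and 0 higher, beside 3.38% and 4.79% over all genes. In all 3 number pairs 27 were lower (22.5% over all genes). The median was −0.96 over 9 libraries beside 0.10 over all genes. With the B-cell marker covariate it was −0.91, and 9 fell (1.14% over all genes). Rrp12, a ribosome export factor gene, was at 12.6, 8.59, 11.1 and 11.4 in ibrutinib and at 28.1, 27.3, 37.6, 68.8 and 39 in vehicle. Every ibrutinib library was below every vehicle library, whatever its B-cell content. The log2 difference was −1.72 ± 0.27 (limma adjusted p = 0.0931), and −2.08 ± 0.27 in the B-cell-rich libraries (0.00597). Rrp1b and Nop56, an rRNA-processing protein and a core protein of box C/D particles, had differences of −1.50 and −0.94 over 9 libraries (limma adjusted p = 0.0764 and 0.101) and fell with log2 differences of −1.86 and −1.19 in the B-cell-rich libraries (0.00356 and 0.00617). Only 2 of the 24 members with a promoter held the E-box CACGTG that MYC binds in the 250 bases before a start (6.86% of all genes).

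Among lower genes with a mean of at least 5 in 1 treatment, some with the lowest p over 9 libraries also act on ribosomal RNA. Tsr1, a factor of small-subunit assembly, was at 39.6, 33.7, 31.2 and 39.7 in ibrutinib and at 69.8, 75.7, 104, 112 and 95 in vehicle (−1.30 ± 0.17, limma adjusted p = 0.0612). Nat10, which acetylates rRNA, had a difference of −0.91 ± 0.13 (limma adjusted p = 0.0612), Gusb, the lysosomal beta-glucuronidase gene, of −1.10 ± 0.14 (0.0612), and Ptpn7, a lymphoid phosphatase gene, of −1.03 ± 0.16 (0.0931). None of these overlapped between treatments. With the B-cell marker covariate Tsr1, Nat10, Gusb and Ptpn7 passed in limma (adjusted p = 0.0241, 0.0259, 0.0241 and 0.0336).

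Part of the cell-cycle genes fell in the B-cell-rich libraries. Of 32 measured G2/M genes 9 fell and 0 rose there in limma (17 lower and 1 higher at an unadjusted p under 0.05). Over all genes 9.19% fell and 17.3% rose. Of the G2/M genes 31 had a negative difference over 9 libraries, and 26 were lower in all 3 pairs (22.5% over all genes). Ccna2, the cyclin of S phase and G2, was at 5.24, 7.03, 6.75 and 3.58 in ibrutinib and at 9.57, 7.61, 22.9, 35.6 and 15 in vehicle, and Top2a, which encodes a topoisomerase of dividing cells, at 24.8 to 32.5 and 44.5 to 190. Neither overlapped. Their differences were −1.36 ± 0.43 and −1.35 ± 0.41 over 9 libraries (limma adjusted p = 0.17 and 0.161) and both genes fell in the B-cell-rich libraries, with log2 differences of −1.87 and −1.72 (limma adjusted p = 0.018 and 0.043). The mitotic kinesin Kif20a and the phosphatase Cdc25c fell there, with log2 differences of −1.82 and −1.33 (limma adjusted p = 0.00629 and 0.011). Of 32 G1/S genes 9 fell and 0 rose in limma (14 lower and 1 higher at an unadjusted p under 0.05), among them Pcna, the sliding clamp of replication (−0.83, 0.00865), E2f2 (−1.02, 0.00855) and Dut (−0.60, 0.0464), while Ccne1 (−1.35, 0.0573) did not pass in limma. With the B-cell marker covariate 0 genes of either list passed in limma (15 G2/M and 9 G1/S genes lower at an unadjusted p under 0.05), with medians of −0.76 for G2/M and −0.44 for G1/S.

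**Figure D3:**
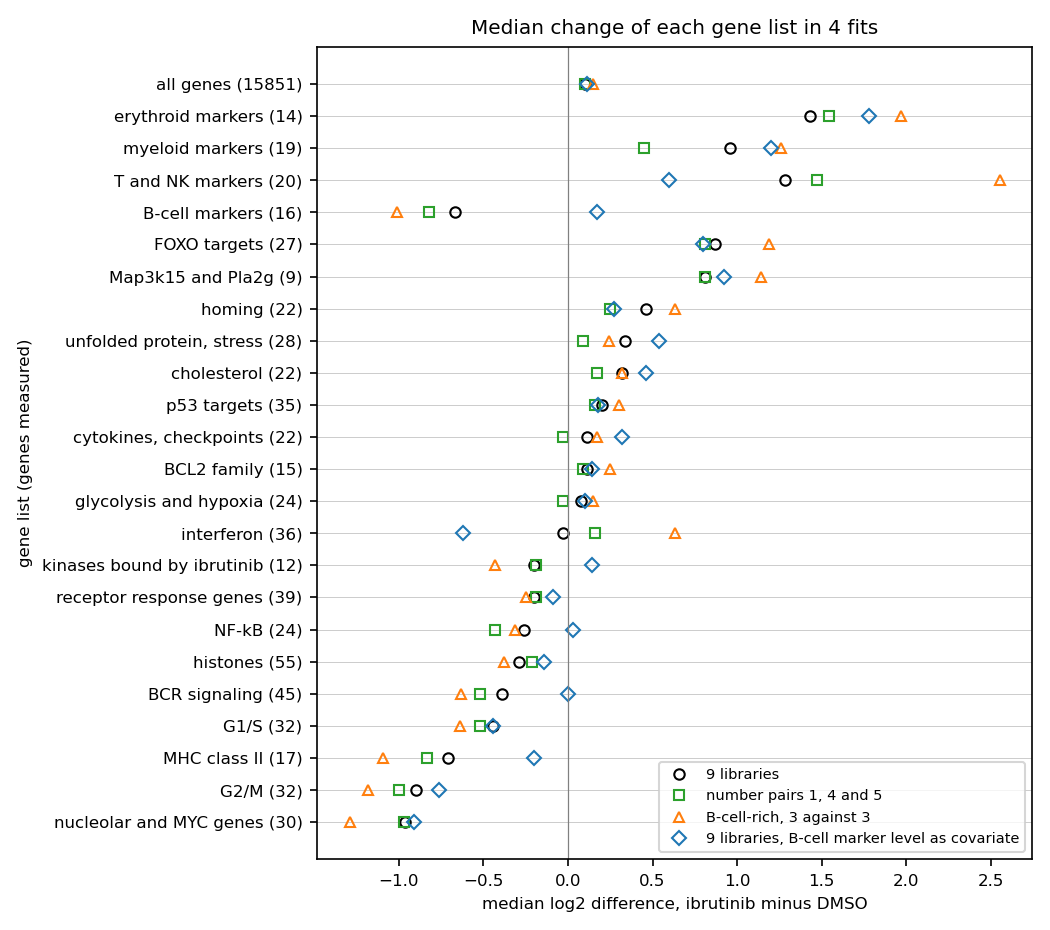
Median log2 difference (x axis, ibrutinib minus DMSO) of the measured genes of each list (y axis, with the number of genes) in 4 fits. The nucleolar and G2/M lists lie between −1.29 and −0.76 in all 4 fits, the FOXO list between 0.80 and 1.19, and the medians of the MHC class II and signaling lists move to −0.20 and 0.00 with the B-cell marker covariate.

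Targets of FOXO factors, which PI3-kinase and AKT signals keep out of the nucleus, rose in part. Of 27 measured genes 13 rose and 0 fell in the B-cell-rich libraries in limma, beside 17.3% and 9.19% over all genes. There 16 were higher and 1 lower at an unadjusted p under 0.05. The median was 0.87 over 9 libraries and 0.80 with the B-cell marker covariate, where 4 rose (3.19% over all genes). Il7r, the interleukin-7 receptor gene, which T-cells also express, was at 175, 1028, 508 and 590 in ibrutinib and at 139, 128, 60, 51.1 and 27.1 in vehicle. No libraries overlapped, and ibrutinib library 1 was close to vehicle libraries 1 and 2. The difference was 2.80 ± 0.61 (limma adjusted p = 0.119) and 3.92 ± 0.39 in the B-cell-rich libraries (0.00397), and 2.73 with the B-cell marker covariate (limma adjusted p = 0.0509). Ccng2, an atypical cyclin of resting cells, was at 65, 85.4, 103 and 102 in ibrutinib and at 34.1 to 56.7 in vehicle, without overlap (0.87 ± 0.20, limma adjusted p = 0.125, and 0.0478 with the B-cell marker covariate). Rag1, the recombinase gene, rose by 1.45 in the B-cell-rich libraries (limma adjusted p = 0.00397) from levels of at most 0.171, and Irs2, an adaptor of insulin signaling, had a difference of 1.11 (0.0508).

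Of 22 measured homing genes 8 rose and 1 fell in the B-cell-rich libraries, beside 17.3% and 9.19% over all genes, and 0 passed with the B-cell marker covariate in limma (3 higher and 3 lower at an unadjusted p under 0.05). S1pr1, the receptor that draws lymphocytes out of tissue, was at 743, 585, 443 and 599 in ibrutinib and at 621, 780, 186, 137 and 205 in vehicle. It was as high in the T-cell-rich vehicle libraries as in ibrutinib, and rose by 1.62 in the B-cell-rich libraries (limma adjusted p = 0.00666), beside the higher T-cell markers. With the B-cell marker covariate its difference was 0.64 (limma adjusted p = 0.219). S1pr4, a related receptor gene, rose by 1.74 in the B-cell-rich libraries (limma adjusted p = 0.00905) and had a difference of 0.89 with the covariate (0.117). Cxcr4 was at 152, 159, 314 and 242 in ibrutinib and at 117 to 180 in vehicle (0.52 ± 0.24, limma adjusted p = 0.282), Cxcr5 had a difference of −0.51 (0.312) and Itgb1, an integrin subunit gene, of −0.59 (0.213).

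The study singled out Map3k15 and phospholipase A2 genes in these samples, so their direction here is not independent evidence. Map3k15 (chrX:159988433-160123351), a kinase of the apoptosis signal-regulating family, was at 8.92, 12.1, 12.3 and 11 in ibrutinib and at 4.92, 4.39, 2.4, 2.93 and 2.66 in vehicle. Every ibrutinib library was above every vehicle library, and all 3 pairs were higher, with differences of 0.75, 1.76 and 1.71 in pairs 1, 4 and 5. Over 9 libraries the difference was 1.46 ± 0.23 (limma adjusted p = 0.0931), in the B-cell-rich libraries 1.81 ± 0.18 (0.00397) and with the B-cell marker covariate 1.41 (0.0336). Among the phospholipases Pla2g4a, the cytosolic enzyme that releases arachidonic acid, was at 0.357, 5.08, 6.07 and 1.99 in ibrutinib and at 0.268, 0.09, 1.11, 0.283 and 0.266 in vehicle. Ibrutinib library 1 overlapped the vehicle range. Pla2g4a, the lysosomal Pla2g15, the secreted Pla2g7 and Pla2g16 rose by 1.74, 1.01, 2.15 and 1.22 in the B-cell-rich libraries (limma adjusted p = 0.0232, 0.0192, 0.011 and 0.0222). Pla2g6, Pla2g12a, Pla2g4c, Pla2g4f and Pla2g2d did not pass there, with differences of 0.33, −0.38, 0.23, 0.21 and 1.14. No phospholipase gene passed in limma with the B-cell marker covariate, where the lowest adjusted p was that of Pla2g15 (0.92, 0.0526).

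A further 6 genes, of heme and glutathione metabolism or linked to the antioxidant factor NRF2, were chosen after their values were seen to be higher, so their shared direction is no result. Mafg, a partner of NRF2, was at 110, 184, 184 and 184 in ibrutinib and at 46, 33.3, 63.3, 71.7 and 88.2 in vehicle. Gclm, a subunit of the enzyme that makes glutathione's precursor, was at 45.1, 101, 91.7 and 84.5 in ibrutinib and at 23.2, 18.7, 38.7, 35.8 and 42.7 in vehicle. Neither overlapped, and in each pair both were higher in ibrutinib, by 1.24, 1.35 and 1.05 for Mafg and by 0.93, 1.33 and 0.97 for Gclm. Over 9 libraries the differences were 1.48 ± 0.30 and 1.31 ± 0.31 (limma adjusted p = 0.11 and 0.129), and with the B-cell marker covariate 1.66 and 1.51 (0.0121 and 0.0144). Hmox1, heme oxygenase, was at 15.9, 286, 566 and 329 in ibrutinib and at 7.07, 4.21, 80.1, 176 and 150 in vehicle, and rose by 1.54 in the B-cell-rich libraries (limma adjusted p = 0.0324). Slc48a1, a heme transporter gene, and Pir rose there by 0.86 and 1.42 (limma adjusted p = 0.0298 and 0.0091), and Sqstm1, the autophagy receptor p62, had a difference of 0.97 (0.0538). The TGACNNNGC core stood before a start of Gclm, Mafg and Pir, 3 of these 6 genes.

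**Figure D4:**
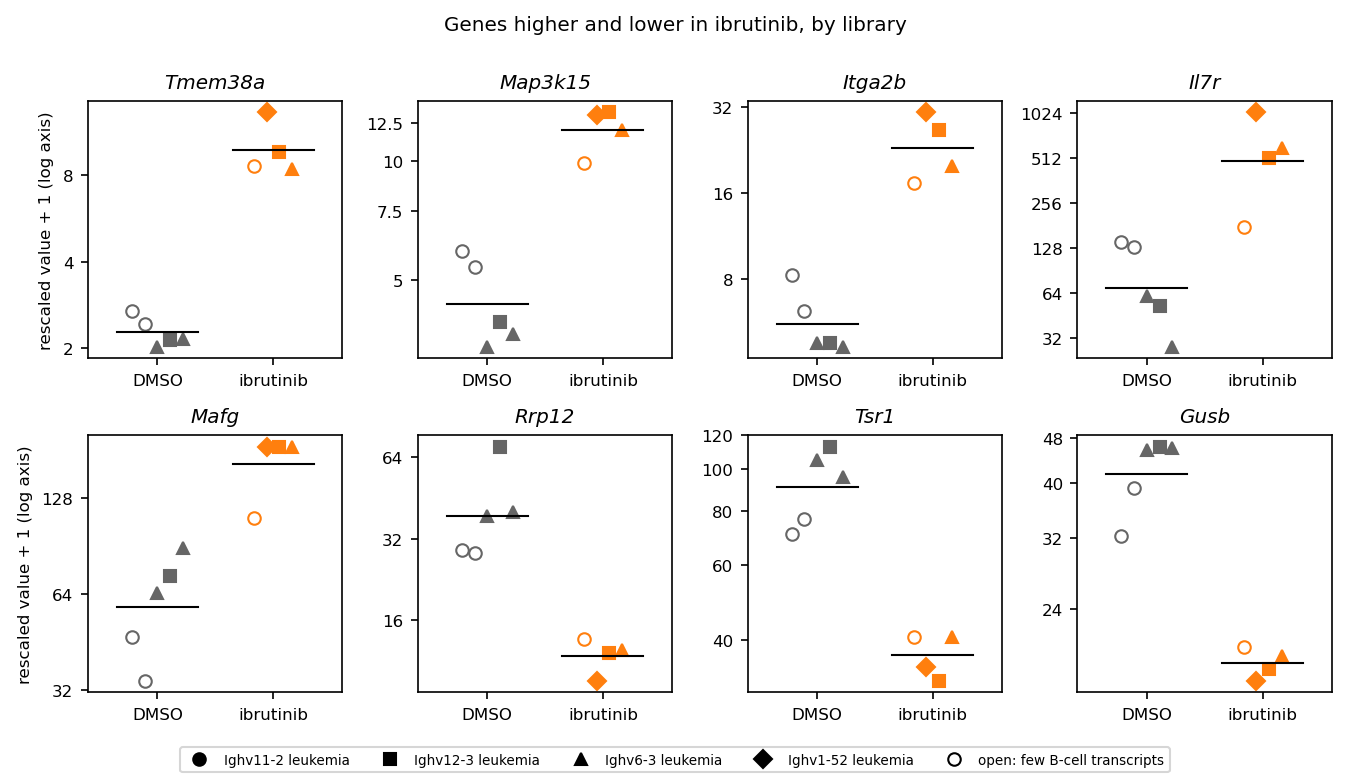
Rescaled value plus 1 (y axis, log scale) of 8 genes in each DMSO (grey) and ibrutinib (orange) library, with shapes, open symbols and lines as in the plot of receptor response genes. Tmem38a, Map3k15, Itga2b, Il7r and Mafg are higher in all 4 ibrutinib libraries than in all 5 vehicle libraries, and Rrp12, Tsr1 and Gusb lower.

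Among genes with a mean of at least 5 in 1 treatment, Itga2b, Dnajb2 and B630019A10Rik were also among the 5 higher genes with the lowest p over 9 libraries. Pir and Gm12474, with means below that, had lower p than Dnajb2 (limma adjusted p = 0.0612 for both). Itga2b, an integrin gene of platelets and megakaryocytes, was at 16.3, 29.7, 25.6 and 18.9 in ibrutinib and at 7.25, 5.19, 3.77, 3.78 and 3.64 in vehicle (2.05 ± 0.26, limma adjusted p = 0.0612). It is also a marker on the erythroid and megakaryocyte list, which was higher in ibrutinib. Dnajb2, a co-chaperone gene, differed by 1.12 ± 0.17 (limma adjusted p = 0.0931) and the processed transcript B630019A10Rik by 2.27 ± 0.29 (limma adjusted p = 0.0612). In the number pairs Tob1, an antiproliferative gene, Pde1b, a calmodulin-dependent phosphodiesterase gene, and Gm5538 were, besides Tmem38a and Mafg, the higher genes with the lowest p among those with a mean of at least 5 in 1 treatment, with differences of 1.61, 1.21 and 2.33 (limma adjusted p = 0.252 for each).

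Trp53 itself was at 44.4, 51.4, 42.9 and 48.9 in ibrutinib and at 46.6, 52.2, 47, 53.5 and 59.4 in vehicle. The groups overlapped in part, with a difference of −0.14 ± 0.12 (limma adjusted p = 0.541). In pairs 1, 4 and 5 the difference was −0.07, −0.31 and −0.28. Transcripts of the mutant and the wild-type allele are counted together in these values. Of 35 measured p53 target genes 6 rose and 3 fell in the B-cell-rich libraries, close to the shares over all genes (17.3% and 9.19%). With the B-cell marker covariate 2 rose and 0 fell in limma, beside 3.19% and 1.14% over all genes (8 higher and 3 lower at an unadjusted p under 0.05). The median was 0.20 over 9 libraries beside 0.10 over all genes. Cdkn1a, which encodes the cell-cycle inhibitor p21, was at 0.714, 7.42, 20.2 and 4.64 in ibrutinib and at 1.07, 1.07, 3.34, 14 and 7.01 in vehicle (0.46 ± 0.82, limma adjusted p = 0.783), and Mdm2, the ligase that degrades p53, differed by 0.28 ± 0.18 (0.411). Trp53inp1, which FOXO factors also control, was at 540, 866, 955 and 685 in ibrutinib and at 487, 512, 267, 168 and 108 in vehicle. It did not overlap between treatments, although vehicle libraries 1 and 2 came close, and it rose by 2.28 in the B-cell-rich libraries (limma adjusted p = 0.00885, 0.0963 with the B-cell marker covariate). Dram1 rose there by 1.24 and Pidd1 fell with a log2 difference of −1.01 (limma adjusted p = 0.0165 and 0.0337), calls that were lost with the covariate (0.0698 and 0.0769), and Ckap2, a mitotic gene, had a difference of −1.24 (0.0519).

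In the BCL2 family 5 of 15 measured genes fell and 3 rose in the B-cell-rich libraries, beside 9.19% and 17.3% over all genes. Mcl1, a survival gene, was at 363, 338, 381 and 354 in ibrutinib and at 350, 391, 830, 527 and 850 in vehicle. Its ibrutinib values were nearly level, at the height of the T-cell-rich vehicle libraries and below the B-cell-rich ones (−1.01 ± 0.24, limma adjusted p = 0.0301 in the B-cell-rich libraries). Bbc3, the death gene PUMA, rose there by 1.24 and Bik by 1.45, while Bak1 and Bcl2l2 fell with log2 differences of −0.70 and −0.95 (limma adjusted p = 0.0359, 0.0161, 0.0236 and 0.0266). In the T-cell-rich vehicle libraries 1 and 2 Bbc3 was at 43.2 and 29.5, within its ibrutinib range of 28.6 to 56.7. Bik was low, at 2.77 and 1.61 there and at 1.46 to 3.25 in ibrutinib. In pair 1 the differences were 0.17 for Bbc3, −0.11 for Bik, 0.03 for Bak1 and −0.23 for Bcl2l2. Bcl2 was at 66.4 to 128 in B-cell-rich ibrutinib libraries and at 72.6 to 94.1 in B-cell-rich vehicle libraries (0.15 ± 0.26, limma adjusted p = 0.703), and at 623 to 774 in the 3 libraries with few B-cell transcripts. Its difference was −0.40 over 9 libraries (limma adjusted p = 0.842) and −1.04 with the B-cell marker covariate, where it passed as lower (0.0402). It was the only gene of the list to pass with that covariate, where 0 rose in limma (3 higher and 4 lower at an unadjusted p under 0.05) and the adjusted p of the other genes named here was 0.12 to 0.223.

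To ask whether the response was particular to p53 mutant leukemia, the difference was set against that in Eμ-TCL1 libraries (3 in ibrutinib, 3 in DMSO) in 1 limma model over 15 libraries. No gene passed the limma threshold for the difference between genotypes, and 71 had an unadjusted p under 0.05, so nothing above is shown to be particular to the mutant. For the difference within the Eμ-TCL1 libraries, taken from the same limma model, 0 genes passed and 507 had an unadjusted p under 0.05. The spread in that model was estimated over all 15 libraries, mutant ones with few B-cell transcripts among them. Its p-values therefore do not measure the spread of the Eμ-TCL1 libraries alone. The difference there was −2.02 for Egr2, −1.81 for Egr3, −2.26 for Nr4a1 and −0.82 for Myc (limma unadjusted p = 0.121, 0.123, 0.071 and 0.14). It was 0.62 for Map3k15 and 1.19 for Tmem38a (limma unadjusted p = 0.0822 and 0.0046). The lowest p for a larger rise in the mutant was that of Gm12474, then Dnah17, a dynein heavy chain gene, Spock2, Serp2 and Plod2, and for a lower value Pfkp, Gm15770, Chsy1, Tspyl4 and Ampd2. Dnah17 was at 11.9, 19.7, 15.1 and 25.4 in ibrutinib and at 4.56, 5.01, 0.6, 1.98 and 1.33 in vehicle in the mutant. Its difference was 2.49 there and 0.19 in Eμ-TCL1, and the difference between genotypes was 2.29 (limma adjusted p = 1). Pfkp, a phosphofructokinase gene of glycolysis, was at 310, 169, 136 and 106 in ibrutinib and at 353 to 390 in vehicle, without overlap (−1.17 ± 0.28 in the mutant, −0.03 in Eμ-TCL1, limma adjusted p = 1 for the difference).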

How the data were processed

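RNA from splenic cells of Eμ-TCL1;p53R172H/+ mice was sequenced after 24 h in 5 μM ibrutinib or DMSO. Per the processing notes and the methods, reads were aligned with TopHat2 2.0.12 and SAMtools 0.1.19 was used, genes of GENCODE M2 (GRCm38) were counted with HTSeq-count, and genes with few reads were filtered. From such counts the authors derived with edgeR the deposited signal, a CPM relative to an effective library size, normalised separately in each treatment's table and rounded to 0.1. Low values filled every step of 0.1, so whole reads were not recovered, no count test was run and the depth is unknown. The strand setting is not given in the sources used here, so reads of overlapping and antisense genes may be shared.

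Samples were grouped from their titles, and 0 columns lay outside the series. Genes in both tables were kept, symbols starting with mt- dropped, and each column was divided so that its median log2 ratio to the gene-wise mean was 0 over genes with a mean of at least 5. The log2 factors ran from −0.43 to −0.25 in ibrutinib and from 0.08 to 0.22 in DMSO. Differences were fitted with limma 3.58.1 in R 4.3.3 (lmFit, eBayes with a trend) on log2(value + 1), which understates the change of low genes, with Benjamini-Hochberg adjustment over all 15851 genes and a threshold of 0.05. Where a number follows a fold in parentheses it is such an adjusted p. Single values were compared by 2-sided exact permutation tests. The B-cell marker covariate was the mean log2 level of 16 markers, Btk among them. The pairing was checked on deviations from group means over 10352 genes. Libraries with the same number correlated at 0.81, 0.75 and 0.78 for numbers 1, 4 and 5 and at −0.12 for number 3, so only the former were paired. Some unlike numbers correlated nearly as well, ibrutinib 1 with DMSO 2 at 0.72 and ibrutinib 5 with DMSO 3 at 0.71. The check therefore does not establish that libraries of 1 number came from 1 mouse.

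The genes named were Trp53, Btk, Cd5, Map3k15 and the measured Pla2g genes, in each of the 9-library and paired fits the 10 largest changes per direction past the threshold without overlap or, where fewer than 5 passed, the 5 lowest p per direction without overlap and with a mean of at least 5 in 1 treatment, in each list the 4 lowest p over 9 libraries, and the 5 lowest p per direction for the difference between genotypes. Cd83, Cd180, Ly86, Scd1, Tnfrsf13c, H2-Aa, H2-Ab1, H2-Eb1, the 6 genes of heme and glutathione metabolism, Egr1, Irf4, Bcl2, Mcl1, Cxcr4, S1pr1, Cdkn1a, Mdm2 and marker genes were added after their values were seen, and immunoglobulin segments are named only to show the leukemia. Results for some named genes are not reported here. Members and lists were chosen with earlier results of these data known. Positions are from GENCODE M21 and promoters from RefSeq (GRCm38.p6). The alternatives were other pseudocounts (0.1 and 5), a mean of at least 5, other scalings, sample quality weights, blocks by number, covariates and each library left out.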

Additional observations from a re-analysis of the deposited data

Results flagged for a closer look

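Within each treatment the highest or lowest library was compared with its nearest neighbour for every named gene (Dixon's ratio at the 95% level), and chance alone sets a library apart in about 1 of 20 groups. This was so in 23 of 254 groups, mostly for 2 libraries. DMSO library 4 (Ighv12-3 leukemia) stood above the other vehicle libraries for Ccl22 (25.3), Ccne1 (26.5), Ckap2 (8.32), Cxcr5 (233), Ddit3 (63.5), Fdft1 (13.7), Irf4 (1085), Itgb1 (586), Rrp12 (68.8) and Tnfsf9 (42.2). The next vehicle library was at 3.22 for Ccl22 and at 2.57 for Tnfsf9.

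Ibrutinib library 1, with few B-cell transcripts, stood above the other ibrutinib libraries for Bcl2 (623), Ddx58 (147), Dhx58 (20.2) and Ldha (171.9) and below them for Fdft1 (11.2) and Mafg (110). Ibrutinib library 5 was the highest for Ptpn6 (123) and Rfx5 (36.3) and the lowest for Pde1b (26.4), ibrutinib library 3 the highest for Bmx (3.25) and ibrutinib library 4 for Egr1 (19.2). Among vehicle libraries, library 3 was the highest for Pla2g4a (1.11) and library 2 for Tigit (2.78).

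Mitochondrial genes, which the comparison left out, took 21.4%, 42.1% and 43.7% of the column sum in ibrutinib libraries 3, 4 and 5, above the highest vehicle library (9.9%). Ibrutinib library 1 was within the vehicle range at 6.3%.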

How the results depend on the processing

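Over 9 libraries 1 gene passed. The count was 0 with a pseudocount of 0.1, 2 with a pseudocount of 5, 0 with a mean of at least 5, 0 with equal column sums, 0 with quantile normalization, 0 with Xist expression as a covariate and 0 with same-clone vehicle libraries averaged, with 1895 to 3255 genes at an unadjusted p under 0.05 in limma. It was 2576 with values as deposited (110 higher, 2466 lower), 3867 with sample quality weights, 4206 in the B-cell-rich libraries, 686 with the B-cell marker covariate, 140 with the leukemia as a block and from 0 to 709 with each library left out. Where numbers were used to pair libraries, the replicate block over numbers 1, 4 and 5 gave 0 genes in limma (3132 at an unadjusted p under 0.05), the same libraries without a replicate block 0 (1196), and the replicate block as a random effect over 9 libraries 1610. The number pairs gave 0 genes in limma under every alternative run, with 493 to 5571 at an unadjusted p under 0.05. In the B-cell-rich libraries the count of 4206 became 0 in limma with the B-cell marker covariate (2335 at an unadjusted p under 0.05), 0 with the replicate block over numbers 4 and 5 (5430), 2206 with same-clone vehicle libraries averaged and 1749 to 3979 with each library left out, and stayed within 1.5 times under the other alternatives run. The fits by leading variable genes (named same-clone or leukemia as a block above) and all alternatives within the B-cell-rich libraries were chosen after seeing the data. Clonal identity was not tested. For the difference between genotypes 0 genes passed in limma under every alternative, with 25 to 1121 at an unadjusted p under 0.05. As deposited the median of all genes was −0.28, against 0.10 after rescaling.

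Of the named genes' log2 differences under the alternatives 2556 kept their sign and side of the threshold, 432 newly passed, 14 (all of Tmem38a) no longer passed and 22 changed sign. Btk was at 0.755 with the B-cell marker covariate, which includes Btk, and at 0.209 with the Xist covariate. With each library left out it ran from −0.731 to 0.881 (0.27, 0.253 and 0.306 without vehicle library 3, 4 and 5, and 0.881 without ibrutinib library 1). Bcl2 was at 0.041 with sample weights, 0.145 in the B-cell-rich libraries, and from −1.075 to 0.088 with each library left out (0.088 and 0.031 without vehicle library 1 and 2). Cdkn1a was at −0.093 over numbers 1, 4 and 5 with or without the block and from −0.111 (without ibrutinib library 4) to 1.1 with each library left out. Pla2g12a was at 0.026 with the B-cell marker covariate, and from −0.302 to 0.035 with each library left out (0.017 without ibrutinib library 3, 0.035 without vehicle library 4). As deposited Cxcr4 was at −0.004, Mdm2 at −0.239, Stard4 at −0.136 and Pla2g4f at −0.011, and with quantile normalization Pla2g4c was at −0.008 and Pla2g4f at −0.078. The causes were not tested.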

Other observations

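Of 36 measured interferon genes 8 rose and 1 fell in the B-cell-rich libraries (median log2 difference 0.63, beside 17.3% and 9.19% of all genes that rose and fell). With the B-cell marker covariate 0 rose and 4 fell, beside 3.19% and 1.14% over all genes (limma, median −0.62, 1 higher and 19 lower at an unadjusted p under 0.05). Ddx58, which encodes the RNA sensor RIG-I, was at 147, 82.6, 70.3 and 71.5 in ibrutinib libraries 1, 3, 4 and 5 and at 191, 228, 119, 107 and 115 in DMSO libraries 1 to 5. Each number pair was lower in ibrutinib, and it fell in the B-cell-rich libraries and with the covariate, with log2 differences of −0.60 and −0.91 (limma adjusted p = 0.02 and 0.0197). Dhx58, a regulator of that sensor, had a difference of −1.28 with the covariate (0.0241), while the chemokine gene Cxcl10 and Mx2 did not pass in either fit.

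Of 22 measured cholesterol genes 4 rose and 1 fell in the B-cell-rich libraries, a share near that of all genes. With the B-cell marker covariate 4 rose and 0 fell (limma, 11 higher and 0 lower at an unadjusted p under 0.05). Over all 15851 genes 3.19% rose and 1.14% fell in that fit, with 2940 higher and 1519 lower at an unadjusted p under 0.05. Fdft1, squalene synthase, was at 11.2, 28.1, 26.6 and 27.8 in ibrutinib and at 9.12, 8.95, 8.91, 13.7 and 9.58 in vehicle, and rose by 1.30 in the B-cell-rich libraries (limma adjusted p = 0.00845), with ibrutinib library 1 the nearest to vehicle. Insig1, a regulator of sterol synthesis, rose there by 0.82 (limma adjusted p = 0.0168), and Stard4 had a difference of 0.45 (0.0663). Scd1, which was lower in ibrutinib, makes unsaturated fatty acids and is not on this list.

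Of 28 measured genes of the unfolded protein and integrated stress responses 3 rose and 4 fell in the B-cell-rich libraries. Over all genes 17.3% rose and 9.19% fell. With the covariate 2 rose and 1 fell (3.19% and 1.14% over all genes). Ern1, the sensor IRE1, was at 14.8, 112, 145 and 29.7 in ibrutinib and at 10.8, 10.5, 7.71, 18 and 8.87 in vehicle, and Ddit3, the stress factor CHOP, at 53.3, 85, 156 and 103 and at 48.7 to 63.5. Both rose in the B-cell-rich libraries, by 2.76 and 1.01 (limma adjusted p = 0.0256 and 0.0302), whereas Psat1 and Shmt2, enzymes of serine and glycine synthesis, fell with log2 differences of −2.27 and −0.98 (0.00977 and 0.0326). Of 24 glycolysis and hypoxia genes 4 rose and 5 fell in the B-cell-rich libraries, the former near the share of all genes (17.3% and 9.19%). With the covariate 2 rose and 2 fell (3.19% and 1.14% over all genes). In the B-cell-rich libraries Bnip3 and Egln3 rose by 1.64 and 0.95 (limma adjusted p = 0.00842 and 0.0203). Ldha and Pfkp fell there with log2 differences of −1.02 and −1.45 (limma adjusted p = 0.0309 and 0.00674).

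Of 22 measured cytokine and checkpoint genes 4 rose and 4 fell in the B-cell-rich libraries, the former near the share of all genes. With the covariate 1 rose and 0 fell in limma, beside 3.19% and 1.14% over all genes (5 higher and 2 lower at an unadjusted p under 0.05). Tigit, an inhibitory receptor gene of T and NK cells, was at 0.952, 16, 7.55 and 5.56 in ibrutinib and at 0.857 to 2.78 in vehicle. Of 55 histone genes 4 fell and 0 rose there in limma (11 lower and 2 higher at an unadjusted p under 0.05). Over all genes 9.19% fell and 17.3% rose. Of 9 measured markers of CLL and B-1 cells 2 fell and 1 rose, and Cd5 was at 65.3, 39.4, 25.9 and 38.4 in ibrutinib and at 93.8, 118, 48.9, 22.6 and 50.8 in vehicle. Of 6 plasma-cell markers none passed in limma in those libraries (1 at an unadjusted p under 0.05), and 1 of 5 stromal markers rose. Irf4, a transcription factor gene of activated B-cells and plasma cells, was at 6.19, 61, 329 and 104 in ibrutinib and at 41.9, 37.1, 300, 1085 and 338 in vehicle. Xist was expressed in ibrutinib library 5 and DMSO libraries 3 and 5 only, at 743 to 1394, and at most at 1.6 in the other libraries.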
